A study of Danio rerio with 5 samples.

Results

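Embryonic basal precursors were compared with embryonic periderm in 1-day-old zebrafish, using 4 of the 5 libraries of the series, chosen by their group labels. The study asked whether basal precursors have a basal identity soon after their fate separates, and periderm is the other early skin layer it sorted. The remaining library, of adult fin basal cells, entered only 1 alternative fit. The basal precursors were sorted as itgb4+ cells from Tg(itgb4:mcherry) embryos (2 libraries). The periderm cells were sorted as krt4+ cells from embryos of a line that joins krt4:creERt2 with Olactb:loxP-dsRed2-loxP-egfp and with cryaa:egfp (2 libraries). Embryos of both lines were 1 day post fertilization, and the wild-type strain of the study derived from Tubingen fish. The wild-type stock had been inbred for years. In the basal line the itgb4 promoter drives mCherry. In the periderm line the krt4 promoter drives CreERt2, a recombinase that needs an added ligand, and a reporter with loxP sites stands under Olactb. The periderm line also carries egfp under the lens crystallin promoter cryaa. Group and transgenic line therefore coincide and cannot be told apart. The sources used here do not give the fluorophore gated in each sort, any ligand treatment or the number of embryos pooled. Nor do they say whether replicates are separate clutches. The p-values therefore cover the spread between these libraries alone, and that spread may be technical.

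The early fish epidermis has an outer periderm over a basal layer. Periderm cells seal the surface with tight junctions, cross-link proteins under the membrane and carry a coat of sugars. Basal cells rest on the basement membrane, which they hold through integrins and help to build, and they are marked by the transcription factor Tp63.

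Reads were counted per transcript, and the row with the most counts stood for each gene. The gene counts summed to 5522942 and 4904833 in basal replicates 1 and 2, and to 4622901 and 7505595 in periderm replicates 1 and 2. Levels are given as counts per 1000000 (CPM) after TMM scaling of these 4 libraries, with replicate 1 before replicate 2 (n = 2 libraries a group). A floor of 3 counts lay between 0.389 and 0.635 CPM and covers counting error only. Fold changes are basal over periderm, so that a negative log2 value is lower in basal precursors. A gene is said to be higher or lower where edgeR's quasi-likelihood test passed an adjusted p of 0.05 over 15589 genes. Heat-shock and immediate-early genes set basal replicate 1 apart, with a summed level of 157647 CPM against 44557 CPM in basal replicate 2. In periderm the same 45 genes summed to 39440.0 and 23300.5 CPM. Their part in the results was not tested.

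The test called 149 genes higher (0.956%) and 396 genes lower (2.54%) in basal precursors, together 3.50% of the genes tested. An unadjusted p under 0.05 was found for 1276 higher and 1615 lower genes of the 15589 tested. The median log2 fold change was 2.47 for the higher genes and -4.23 for the lower genes, with genes without counts in 1 group placed at a bound against 3 counts per library. More than 10-fold differences, taken the same way, were found for 30 higher and 300 lower genes. The 2 directions also differed in what the other population still held. Of the 149 higher genes, 127 (85.2%) had at least 2 CPM in both periderm libraries. Of the 396 lower genes, 154 (38.9%) had at least 2 CPM in both basal libraries, and 138 (34.9%) were under 1 CPM in both. No counts at all were found in the basal libraries for 40 lower genes. These counts depended on single libraries. The calls were 29 higher and 168 lower without basal replicate 1, 510 and 438 without basal replicate 2, and 30 and 263 without periderm replicate 2. Without periderm replicate 1, edgeR called 0 higher and 78 lower genes, with 932 higher at an unadjusted p under 0.05. DESeq2 on all 4 libraries called 557 higher and 839 lower genes. Marker lists of pigment, neural and lens cells moved with the lower genes, with median log2 fold changes of -3.07, -2.16 and -3.86, and their part was not tested. In bulk samples, fewer cells of a type and less RNA per cell cannot be told apart.

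**Figure D1:**
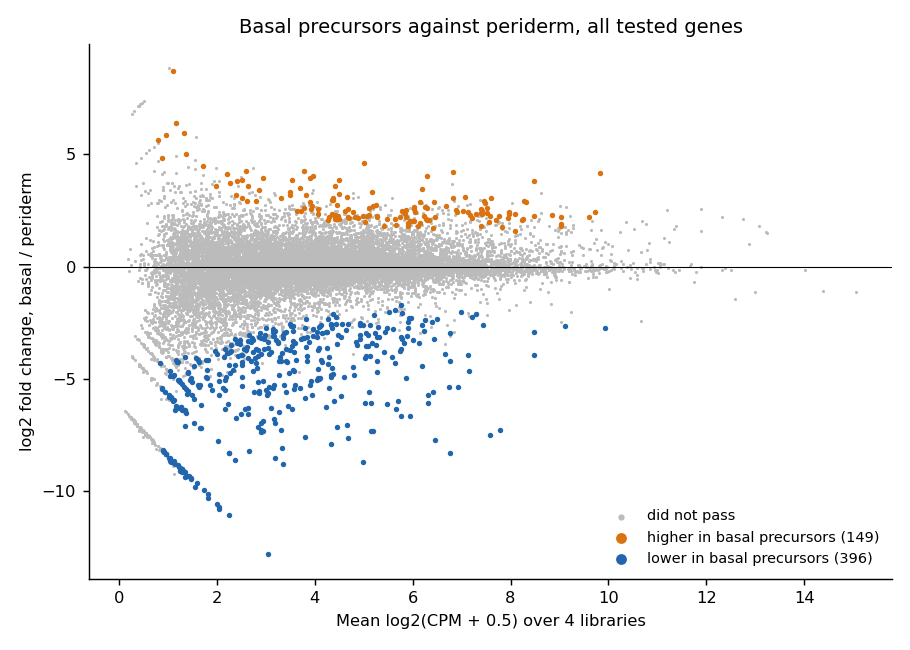
Log2 fold change of basal precursors over periderm (vertical axis) against mean log2 CPM over the 4 libraries (horizontal axis, pseudocount of 0.5 CPM) for the 15589 tested genes. Orange points are the 149 genes higher and blue points the 396 genes lower in basal precursors. The lower genes reach fold changes far beyond those of the higher genes, and the lowest points are genes without counts in the basal libraries, whose fitted value is no bound.

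The genes behind the sorts and the basal and periderm markers were compared with the labels, and only some of them passed. itgb4, which encodes the beta subunit of the hemidesmosome integrin, had 547 and 560.0 CPM in basal libraries and 10.9 and 47.7 CPM in periderm libraries. The groups did not overlap (log2 fold change 4.23, SE 0.68, adjusted p = 0.0251), and since its promoter drives the reporter of the line this is a check of the label. tp63 had levels of 218 and 246 CPM in basal precursors and 30.0 and 76.3 CPM in periderm. It was also without overlap, but it missed the threshold (log2 fold change 2.12, SE 0.48, adjusted p = 0.0601). Lack of overlap is common with 2 libraries a group, and 47.0% of all tested genes showed it. krt4, whose promoter marked the periderm line, was among the most abundant genes of both populations, with 26855 and 20516 CPM in basal precursors against 68353 and 35726 CPM in periderm. Its difference did not pass (log2 fold change -1.14, SE 0.69, adjusted p = 0.466). The keratin gene krtt1c19e, known as a basal marker, had 2661 and 1015 CPM in basal libraries and 2932 and 968 CPM in periderm libraries, so that replicates differed more than groups (adjusted p = 0.977). Of the other periderm markers, agr1, icn2 and anxa1c passed, while cyt1 and krt5, given with the keratins below, did not. agr1, of a family of disulfide isomerases in the secretory pathway, had levels of 4.66 and 7.52 CPM in basal precursors and 2522 and 1303 CPM in periderm (log2 fold change -8.29, SE 0.62, adjusted p = 0.00306). icn2, an S100-type calcium-binding ictacalcin, had 9.94 and 19.1 CPM in basal precursors against 3125 and 2125 CPM in periderm (log2 fold change -7.49, SE 0.59, adjusted p = 0.00306). anxa1c, an annexin that binds membranes when calcium is present, had 16.3 and 19.3 CPM in basal libraries and 3465 and 2011 CPM in periderm libraries (log2 fold change -7.26, SE 0.54, adjusted p = 0.00306). The values of itgb4, agr1, icn2 and anxa1c went with the labels, while krt4 RNA was abundant in both populations. krt4 and tp63 have transcript rows in more than 1 place of the table. The higher call, itgb4, was lost without periderm replicate 1 (adjusted p = 0.0740). Each of the 3 lower calls named here held without any 1 of the 4 libraries. With transcript rows summed, the test lost itgb4 (adjusted p = 0.0610). A fold is given again where it moved by over 1.5 times when 1 library was left out, as a log2 fold change of 3.56 for itgb4 without periderm replicate 1, and 5.67 for itgb4 without periderm replicate 2.

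The envelope list holds plakins, transglutaminases, annexins, S100 genes and other periderm genes. Of its 37 tested members, 16 were lower and 2 higher, while 2.54% of all tested genes were lower and 0.956% higher. The median log2 fold change of the list was -2.27 (-1.98 without basal replicate 2, -1.55 without periderm replicate 2) against -0.02 over all tested genes. Its members were chosen with earlier results of these data known. These values therefore describe the list and are no test of it. Transglutaminases, which cross-link proteins, went both ways. tgm1, the main enzyme of cornified envelopes in mammals, had no counts in basal precursors against 54.7 and 20.6 CPM in periderm, at least 62.1-fold lower (adjusted p = 0.0161). tgm1l4, named as a relative of it, had levels of 1.48 and 4.05 CPM in basal precursors and 492 and 398 CPM in periderm (log2 fold change -7.31, SE 0.57, adjusted p = 0.00306). tgm5l had no counts in basal precursors against 13.2 and 5.70 CPM in periderm, at least 15.6-fold lower (adjusted p = 0.0448). The tissue transglutaminase gene tgm2b went the other way, at 531 and 265 CPM in basal precursors against 72.2 and 80.3 CPM in periderm (log2 fold change 2.38, SE 0.43, adjusted p = 0.0331). The same family thus held 3 members under 5 CPM in the basal libraries and 1 that was higher there.

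Envoplakins, periplakin and sciellin, which act as scaffolds of the envelope, were all lower. The envoplakin gene evplb had 2.54 and 2.70 CPM in basal libraries and 508 and 327 CPM in periderm libraries (158-fold lower, adjusted p = 0.00306). Its paralog evpla had levels of 7.19 and 14.3 CPM in basal precursors and 445 and 222 CPM in periderm (30.9-fold lower, adjusted p = 0.00824), and periplakin, ppl, had 37.0 and 21.8 CPM in basal precursors against 970.3 and 511 CPM in periderm (25.2-fold lower, adjusted p = 0.00756). The 3 genes differed in how much the basal libraries kept, which was 0.627% of the mean periderm level for evplb, 3.22% for evpla and 3.97% for ppl. scel, which encodes the envelope precursor sciellin, had 0.846 and 1.35 CPM in basal libraries and 116 and 49.9 CPM in periderm libraries (73.2-fold lower, adjusted p = 0.00633). pleca, a plectin of the same superfamily that ties keratin to hemidesmosomes, had levels of 338 and 446 CPM in basal precursors and 189 and 273 CPM in periderm and did not pass (adjusted p = 0.322).

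Annexins and S100 genes differed from paralog to paralog. anxa1b had 15.23 and 9.64 CPM in basal precursors against 671 and 503 CPM in periderm (log2 fold change -5.56, SE 0.45, adjusted p = 0.00306), close in direction to anxa1c. anxa1a, another copy of the same gene, had 1104 and 471 CPM in basal libraries and 1002 and 607 CPM in periderm libraries, with overlapping groups (log2 fold change -0.03, adjusted p = 0.988). anxa6 was lower too, with levels of 0 and 3.08 CPM in basal precursors and 41.7 and 32.4 CPM in periderm (23.1-fold lower, adjusted p = 0.0461). Among calcium-binding genes icn, the paralog of icn2, had 104 and 159 CPM in basal precursors against 1093 and 895 CPM in periderm (log2 fold change -2.91, SE 0.40, adjusted p = 0.0142), so the basal libraries kept 13.3% of its mean periderm level and 0.553% of that of icn2. s100w had 1.90 and 2.89 CPM in basal libraries and 62.3 and 17.2 CPM in periderm libraries (16.3-fold lower, adjusted p = 0.0380). The most abundant S100 gene in counts was s100a10b, with levels of 4720.0 and 2235 CPM in basal precursors and 1059.8 and 803 CPM in periderm, which did not pass (adjusted p = 0.0840).

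Further large differences were found in genes of varied roles. lye, an epidermal gene of the Ly6 family, had 1.27 and 1.93 CPM in basal precursors against 373 and 269 CPM in periderm (197-fold lower, adjusted p = 0.00306). ptx4, of the pentraxin family, had 1.27 and 0.964 CPM in basal libraries and 358 and 180.2 CPM in periderm libraries (237-fold lower, adjusted p = 0.00306). spaca4l, also of the Ly6 family, was 1 of the 2 members that were higher, with levels of 1125 and 639 CPM in basal precursors and 105 and 138 CPM in periderm (7.25-fold higher, adjusted p = 0.0195). vstm5, which encodes a membrane protein with an immunoglobulin-type domain, had 1 count in the basal libraries together against 63.5 and 32.1 CPM in periderm, 439-fold lower (95% counting interval 78.8 to 17336, adjusted p = 0.00398). The small GTPase gene arl11 had 1 count in the basal libraries together against 46.3 and 30.6 CPM in periderm, 363-fold lower (95% counting interval 65.2 to 14348, adjusted p = 0.00398). stx11b.1, a syntaxin of membrane fusion, had 0.635 and 0.193 CPM in basal precursors against 75.5 and 44.8 CPM in periderm (141-fold lower, adjusted p = 0.00348). Of the 2 higher calls named here, those lost when 1 library was left out were tgm2b without basal replicate 1 (adjusted p = 0.119), all without periderm replicate 1 (adjusted p 0.181 to 0.223) and all without periderm replicate 2 (adjusted p 0.0697 to 0.107). Of the 16 lower calls named here, those lost when 1 library was left out were 4 of them without basal replicate 1 (adjusted p 0.0549 to 0.145), tgm5l without basal replicate 2 (adjusted p = 0.0588), 5 of them without periderm replicate 1 (adjusted p 0.0866 to 0.222) and tgm5l without periderm replicate 2 (adjusted p = 0.0603). Summing transcript rows lost tgm2b and 3 of the 16 lower calls (adjusted p 0.0615 to 0.0897), and edgeR's older quasi-likelihood fit lost anxa6 (adjusted p = 0.0816). Moves of over 1.5 times gave log2 fold changes of -3.55 for anxa6 and -8.11 for stx11b.1 without basal replicate 1, and -8.20 for tgm1l4 and -6.50 for stx11b.1 without basal replicate 2, and -4.34 for evpla, -5.44 for scel, -2.80 for s100w and -7.28 for ptx4 without periderm replicate 1, and -4.67 for s100w without periderm replicate 2. For anxa6 the basal library left without basal replicate 2 held no counts.

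**Figure D2:**
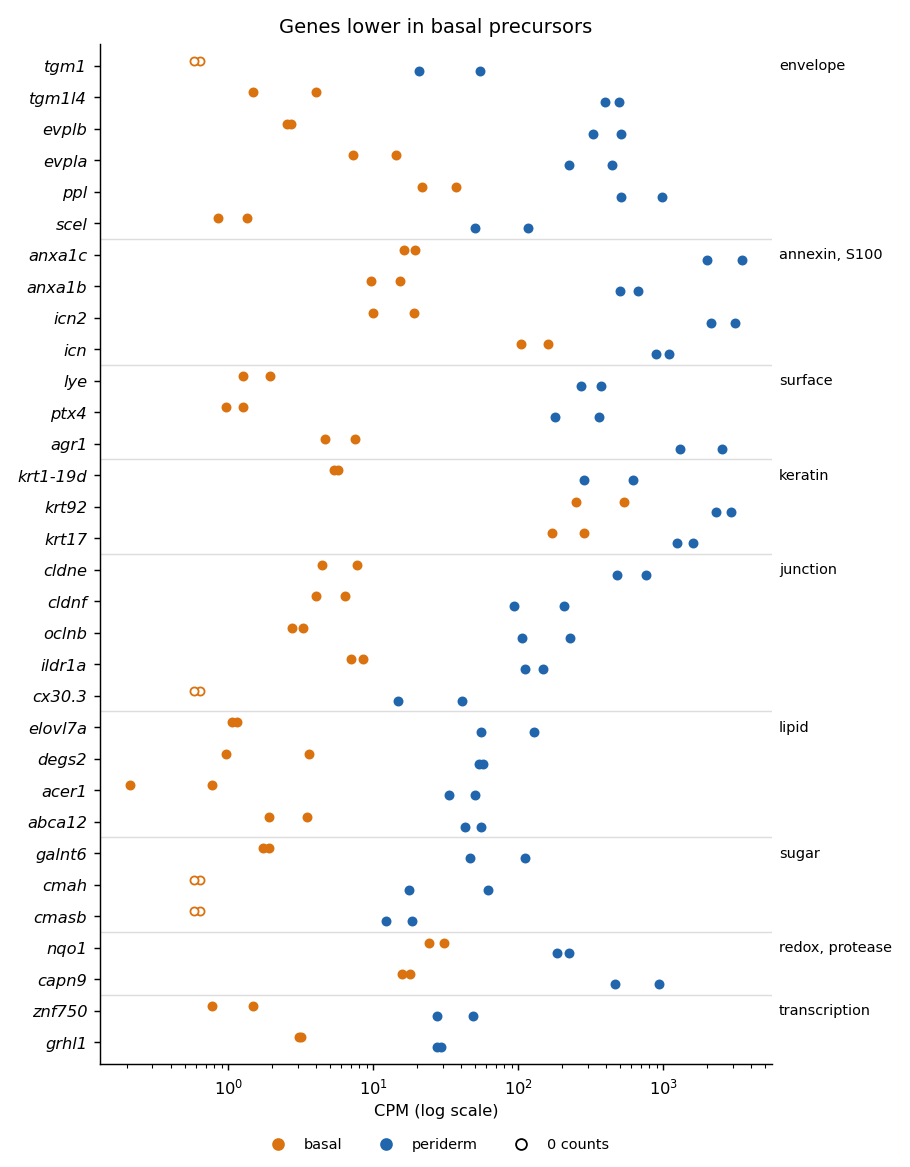
CPM in each library (horizontal axis, log scale) for genes lower in basal precursors, grouped by role from top to bottom. Within each gene the orange basal points stand above the blue periderm points. Open symbols mark libraries with 0 counts, drawn at that library's floor of 3 counts (0.389 to 0.635 CPM). Only called genes without overlap between the groups were drawn, so the separation of the points follows from that choice. Of all tested genes, 47.0% were without overlap.

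Keratins, the intermediate filament proteins of epithelia, were abundant in both populations. The 19 keratin genes summed to 46609 and 31617 CPM in basal precursors and to 111669 and 61919 CPM in periderm. Of 17 tested, 3 were lower and 1 was higher, with a median log2 fold change of -0.32 (-0.77 without basal replicate 1, -0.25 without periderm replicate 2). Over all tested genes 2.54% were lower and 0.956% higher. krt1-19d had 5.71 and 5.40 CPM in basal libraries and 617 and 285 CPM in periderm libraries (log2 fold change -6.34, SE 0.55, adjusted p = 0.00335). krt92 had levels of 534 and 248 CPM in basal precursors and 2932 and 2304 CPM in periderm (6.70-fold lower, adjusted p = 0.0331), and krt17 had 283 and 169.6 CPM in basal precursors against 1596 and 1239.9 CPM in periderm (6.26-fold lower, adjusted p = 0.0246). These 2 genes stayed abundant in basal precursors, whereas krt1-19d was under 6 CPM there. krt8, a type II keratin of simple epithelia, went the other way with 1531 and 766 CPM in basal libraries and 232 and 271 CPM in periderm libraries (4.57-fold higher, adjusted p = 0.0432).

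Per length, krt4 led the family in both populations. The authors' TPM of its main row was 10255 and 9238 in basal precursors against 30057 and 15288 in periderm. The type I genes cyt1 and cyt1l followed, with 4769 and 3574 in basal precursors against 12034 and 7300.4 in periderm for cyt1 and 3248 and 2323 in basal precursors against 10564 and 5668 in periderm for cyt1l. All 3 had higher values in both periderm libraries, yet none passed in CPM (adjusted p = 0.466, 0.332 and 0.208). krt5 had levels of 1178 and 368 CPM in basal precursors and 5007 and 3267 CPM in periderm (adjusted p = 0.0809). In TPM krt1-19d had 3.81 and 4.25 in basal precursors against 474 and 213 in periderm, so its periderm level was far below that of krt4. The higher call, krt8, was lost without basal replicate 1 (adjusted p = 0.166), without periderm replicate 1 (adjusted p = 0.284) and without periderm replicate 2 (adjusted p = 0.143). Of the 3 lower calls named here, those lost when 1 library was left out were krt92 and krt17 without periderm replicate 1 (adjusted p 0.152 to 0.190) and krt92 and krt17 without periderm replicate 2 (adjusted p 0.0521 to 0.0735). With transcript rows summed, the test lost krt8 and krt92 (adjusted p 0.0599 to 0.0761), and edgeR's older quasi-likelihood fit lost krt8 (adjusted p = 0.0594). The folds that moved by over 1.5 times had log2 values of -3.38 for krt92 without basal replicate 1, and -5.65 for krt1-19d without periderm replicate 1.

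Genes that seal and connect the surface layer split within each family. In the tight junction list 5 of 40 tested members were lower, against 2.54% of all tested genes. The median log2 fold change over the list was 0.01 (-0.61 without basal replicate 2, 0.05 without periderm replicate 2). The claudin cldne had 4.44 and 7.71 CPM in basal precursors against 754 and 475 CPM in periderm (log2 fold change -6.65, SE 0.52, adjusted p = 0.00306), and cldnf had 6.35 and 4.05 CPM in basal libraries and 206 and 93.4 CPM in periderm libraries (28.8-fold lower, adjusted p = 0.00831). oclnb, an occludin, had levels of 2.75 and 3.28 CPM in basal precursors and 226 and 105 CPM in periderm (54.4-fold lower, adjusted p = 0.00418), whereas its paralog oclna had 420.2 and 171 CPM in basal precursors against 242 and 145 CPM in periderm (adjusted p = 0.627). Tricellular contacts are represented by ildr1a, an angulin, with 6.98 and 8.48 CPM in basal libraries and 149 and 110.4 CPM in periderm libraries (log2 fold change -4.06, SE 0.41, adjusted p = 0.00527). cgnb, whose product cingulin links tight junctions to actin, had levels of 4.23 and 1.54 CPM in basal precursors and 31.9 and 23.2 CPM in periderm (9.54-fold lower, adjusted p = 0.0392). No other gene of the list passed.

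Of 12 tested connexin and pannexin genes, 2 were lower and 1 was higher, and both lower genes lacked basal counts. The shares over all tested genes were 2.54% lower and 0.956% higher. cx30.3, a connexin, had no counts in basal precursors against 40.9 and 14.8 CPM in periderm, at least 45.9-fold lower (adjusted p = 0.0226). cx23, a connexin known from the lens, had no counts in basal precursors against 7.20 and 12.3 CPM in periderm, at least 16.1-fold lower (adjusted p = 0.0362). Lens genes were lower in basal precursors as a list, and their part in the cx23 result was not tested. The most abundant connexin in counts, cx43.4, had 272 and 207 CPM in basal precursors against 157 and 150.1 CPM in periderm (adjusted p = 0.368). panx1a, which forms pannexin channels for small molecules such as ATP, was higher, with 15.23 and 22.5 CPM in basal libraries and 1.85 and 1.295 CPM in periderm libraries (12.1-fold higher, adjusted p = 0.0312).

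Apical and cortical genes also went both ways. In their list of 44 tested members, 2 were higher, 3 were lower and 39 did not pass, with a median log2 fold change of 0.29. edgeR's unadjusted p was under 0.05 for 13 higher and 6 lower members. Of all 15589 tested genes, 1276 were higher and 1615 lower at that level, and 0.956% and 2.54% were called. crb3b, of the Crumbs complex that sets up the apical side, had levels of 2.12 and 0.578 CPM in basal precursors and 26.9 and 22.5 CPM in periderm (18.4-fold lower, adjusted p = 0.0262), and its paralog crb3a had 9.94 and 13.3 CPM in basal precursors against 1.03 and 3.63 CPM in periderm, in the other direction and without passing (adjusted p = 0.138). myo5b, a motor that brings recycling vesicles to the apical surface, had 4.66 and 8.87 CPM in basal libraries and 59.2 and 43.3 CPM in periderm libraries (7.52-fold lower, adjusted p = 0.0299), and its relative myo5ab had levels of 30.7 and 26.2 CPM in basal precursors and 1.44 and 9.20 CPM in periderm (adjusted p = 0.134). eps8l1, which regulates actin, had 0 and 0.964 CPM in basal precursors against 70.5 and 28.1 CPM in periderm (94.1-fold lower, adjusted p = 0.0171). The actin crosslinker actn1 was higher, with 623 and 579 CPM in basal libraries and 77.7 and 142 CPM in periderm libraries (log2 fold change 2.45, SE 0.41, adjusted p = 0.0280), as was pdlim1, which binds alpha-actinin, with levels of 704 and 441 CPM in basal precursors and 86.6 and 141 CPM in periderm (5.03-fold higher, adjusted p = 0.0333). lcp1, an actin bundler also known from leukocytes, had 1.06 and 2.51 CPM in basal precursors against 48.3 and 92.7 CPM in periderm (38.8-fold lower, adjusted p = 0.00919). The leukocyte list, in which lcp1 is a member, had 5 lower and 1 higher of 20 tested. Its median log2 fold change was -3.71, or -3.15 with genes lacking counts in 1 group at their bound, and its summed level was 758 and 438 CPM in basal precursors against 539.9 and 725 CPM in periderm. mpx, a neutrophil marker in that list, had no counts in basal precursors against 6.99 and 6.48 CPM in periderm, at least 11.1-fold lower (adjusted p = 0.0438), and the part of leukocytes in the lcp1 result was not tested. Of the 3 higher calls named here, those lost when 1 library was left out were actn1 and pdlim1 without basal replicate 1 (adjusted p 0.0592 to 0.113), all without periderm replicate 1 (adjusted p 0.145 to 0.231) and panx1a and pdlim1 without periderm replicate 2 (adjusted p 0.0735 to 0.101). Of the 12 lower calls named here, those lost when 1 library was left out were 4 of them without basal replicate 1 (adjusted p 0.0549 to 0.180), cgnb and mpx without basal replicate 2 (adjusted p 0.0567 to 0.0942), 7 of them without periderm replicate 1 (adjusted p 0.115 to 0.194) and 4 of them without periderm replicate 2 (adjusted p 0.0559 to 0.107). Calls lost with transcript rows summed were all 3 higher calls and 4 of the 12 lower calls (adjusted p 0.0576 to 0.0615), and edgeR's older quasi-likelihood fit lost cgnb (adjusted p = 0.0517). Log2 fold changes that moved by over 1.5 times were -4.11 for cgnb, -5.34 for crb3b and -5.62 for eps8l1 without basal replicate 1, and -3.52 for crb3b and -6.02 for lcp1 without basal replicate 2, and -4.14 for cldnf, -5.09 for oclnb and -5.73 for eps8l1 without periderm replicate 1. For eps8l1 the basal library left without basal replicate 2 held no counts.

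Single enzymes of skin lipids and of the cell-surface sugar coat were lower, while most members of both lists did not pass. Of 35 tested lipid and mucin genes, 6 were lower, against 2.54% of all tested genes. The median log2 fold change of the list was -0.31 (-0.67 without basal replicate 2, -0.53 without basal replicate 1). elovl7a and elovl6l lengthen fatty acids. elovl7a had 1.06 and 1.16 CPM in basal libraries and 127 and 55.2 CPM in periderm libraries (log2 fold change -6.33, SE 0.64, adjusted p = 0.00523). elovl6l had levels of 3.81 and 2.12 CPM in basal precursors and 135 and 52.8 CPM in periderm (31.6-fold lower, adjusted p = 0.0117). Another elongase gene, elovl1a, had 93.5 and 20.04 CPM in basal precursors against 112 and 62.6 CPM in periderm, with overlapping groups (adjusted p = 0.749).

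Ceramides are the main waxy lipids of the skin barrier in mammals, and 2 of their enzymes were lower. degs2, which makes phytoceramide, had 3.60 and 0.964 CPM in basal libraries and 53.9 and 56.9 CPM in periderm libraries (24.4-fold lower, adjusted p = 0.0138), while its paralog degs1 had levels of 225 and 119 CPM in basal precursors and 68.9 and 109 CPM in periderm (adjusted p = 0.301). acer1, an alkaline ceramidase, had 0.212 and 0.771 CPM in basal precursors against 50.2 and 33.03 CPM in periderm (log2 fold change -6.31, SE 0.70, adjusted p = 0.00574). abca12, the transporter that loads lipids into lamellar bodies of mammalian keratinocytes, had 1.90 and 3.47 CPM in basal libraries and 42.8 and 55.1 CPM in periderm libraries (log2 fold change -4.17, SE 0.52, adjusted p = 0.0110). alox12, a lipoxygenase and the most abundant member in counts, had levels of 508 and 293 CPM in basal precursors and 531 and 326 CPM in periderm and did not separate the groups (adjusted p = 0.960). mgll, which breaks down monoacylglycerol and is outside the list, had 0.635 and 0.964 CPM in basal precursors against 89.9 and 58.0 CPM in periderm (89.3-fold lower, adjusted p = 0.00335).

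Single mucin and sugar genes were lower too. muc13a, a mucin anchored in the membrane, had 1 count in the basal libraries together against 27.4 and 26.9 CPM in periderm, 269-fold lower (95% counting interval 48.2 to 10613, adjusted p = 0.00574). Of 64 tested glycosyltransferase and sialic acid genes, 7 were lower, against 2.54% of all tested genes. The median log2 fold change of the list was -0.05 (-0.36 without basal replicate 2, 0.07 without periderm replicate 2). Sialic acids are acidic sugars that cap surface glycans, and 3 enzymes that make or activate them were among the lower genes. nansb, a sialic acid synthase, had 2.12 and 4.24 CPM in basal libraries and 23.7 and 22.7 CPM in periderm libraries (7.20-fold lower, adjusted p = 0.0428). cmasb, which couples the sugar to CMP for transfer, had no counts in basal precursors against 18.5 and 12.2 CPM in periderm, at least 25.3-fold lower (adjusted p = 0.0242). cmah, which converts that activated form from the acetyl to the glycolyl type, had no counts in basal precursors against 62.1 and 17.6 CPM in periderm, at least 65.7-fold lower (adjusted p = 0.0222). The other lower genes start, branch or extend glycans. galnt6, which starts mucin-type O-glycans, had levels of 1.90 and 1.73 CPM in basal precursors and 111 and 46.6 CPM in periderm (log2 fold change -5.42, SE 0.62, adjusted p = 0.00831). gcnt4a, which branches them, had 2.96 and 3.85 CPM in basal precursors against 28.4 and 25.4 CPM in periderm (7.82-fold lower, adjusted p = 0.0310). The fucosyltransferase genes fut9d and fut9b had 4.44 and 0 CPM in basal libraries and 147 and 103 CPM in periderm libraries for fut9d (57.1-fold lower, adjusted p = 0.0309) and levels of 2.54 and 0.578 CPM in basal precursors and 23.2 and 28.6 CPM in periderm for fut9b (16.7-fold lower, adjusted p = 0.0307), and near-identical copies could share reads. The related galnt5 had 69.2 and 73.8 CPM in basal precursors against 63.3 and 56.6 CPM in periderm (adjusted p = 0.810). Of the 14 lower calls named here, those lost when 1 library was left out were nansb, cmasb and gcnt4a without basal replicate 1 (adjusted p 0.0506 to 0.188), 9 of them without periderm replicate 1 (adjusted p 0.0515 to 0.193) and nansb, gcnt4a and fut9b without periderm replicate 2 (adjusted p 0.0646 to 0.104). Summing transcript rows lost 6 of the 14 lower calls (adjusted p 0.0565 to 0.0807), and edgeR's older quasi-likelihood fit lost nansb and fut9d (adjusted p 0.0556 to 0.0566). Folds moved by over 1.5 times, to log2 values of -5.79 for degs2, -5.69 for acer1 and -5.42 for fut9b without basal replicate 1, and -3.93 for degs2, -7.46 for acer1, -4.80 for fut9d and -3.33 for fut9b without basal replicate 2, and -5.58 for elovl7a, -4.12 for elovl6l and -4.64 for galnt6 without periderm replicate 1. For fut9d the basal library left without basal replicate 1 held no counts.

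Oxidase, detoxifying and protease genes added further members on the periderm side. In the redox and host defence list 5 of 40 tested members were lower and 1 was higher. The shares over all tested genes were 2.54% and 0.956%. The median log2 fold change of the list was 0.07 (-0.47 without basal replicate 1, 0.24 without basal replicate 2). duox, an oxidase that releases hydrogen peroxide at epithelial surfaces, had 1 count in the basal libraries together against 44.6 and 32.5 CPM in periderm, 369-fold lower (95% counting interval 66.2 to 14566, adjusted p = 0.00382). noxo1a, an organizer of NADPH oxidase complexes, had 2.75 and 0 CPM in basal libraries and 36.4 and 32.1 CPM in periderm libraries (25.2-fold lower, adjusted p = 0.0436). nqo1, a quinone reductase, had levels of 30.9 and 24.3 CPM in basal precursors and 222 and 184 CPM in periderm (log2 fold change -2.88, SE 0.37, adjusted p = 0.0112), and gstp1, a glutathione transferase, had 85.9 and 65.9 CPM in basal precursors against 369 and 284 CPM in periderm (4.30-fold lower, adjusted p = 0.0296). aqp3a, a channel for water and glycerol that also passes hydrogen peroxide, was higher instead, with 716 and 561 CPM in basal libraries and 136 and 158 CPM in periderm libraries (log2 fold change 2.12, SE 0.35, adjusted p = 0.0270).

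Proteases and their inhibitors were called in both directions. Of 75 tested, 5 were lower and 4 higher, against 2.54% and 0.956% of all tested genes. The median log2 fold change was 0.75 (0.28 without basal replicate 1, 0.71 without periderm replicate 2). The lower ones were a calpain, cystatins, a serpin and a membrane serine protease. capn9 had levels of 17.8 and 15.8 CPM in basal precursors and 933 and 462 CPM in periderm (log2 fold change -5.38, SE 0.50, adjusted p = 0.00397). The cystatin gene cst14b.1 had 96.5 and 89.4 CPM in basal precursors against 1933 and 945 CPM in periderm (15.5-fold lower, adjusted p = 0.00990). Its neighbour in name, cst14b.2, had no counts in basal precursors against 5.14 and 12.6 CPM in periderm, at least 14.6-fold lower (adjusted p = 0.0464), and reads may be split between such copies. serpinb14, of the intracellular serpins, had 15.0 and 8.09 CPM in basal libraries and 174 and 89.0 CPM in periderm libraries (11.4-fold lower, adjusted p = 0.0192). Matriptase genes did not move together. st14b had levels of 2.75 and 2.89 CPM in basal precursors and 42.8 and 16.6 CPM in periderm (10.4-fold lower, adjusted p = 0.0398), while st14a had 401 and 238 CPM in basal precursors against 128 and 113 CPM in periderm in the other direction and missed the threshold (adjusted p = 0.0906).

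The higher ones were matrix metalloproteases and an inhibitor of that class. mmp2, a gelatinase, had 447 and 309.5 CPM in basal libraries and 90.7 and 99.5 CPM in periderm libraries (log2 fold change 1.99, SE 0.36, adjusted p = 0.0331). mmp14a, the membrane-bound activator of Mmp2, had levels of 179 and 132 CPM in basal precursors and 46.7 and 46.8 CPM in periderm (3.33-fold higher, adjusted p = 0.0451). mmp28 had 103 and 84.8 CPM in basal precursors against 14.8 and 28.9 CPM in periderm (4.28-fold higher, adjusted p = 0.0495), and the inhibitor gene timp4.1 had 71.7 and 47.8 CPM in basal libraries and 13.4 and 12.4 CPM in periderm libraries (4.63-fold higher, adjusted p = 0.0377). htra1b, a secreted serine protease outside the list's calls, had levels of 31.5 and 12.7 CPM in basal precursors and 2.88 and 1.42 CPM in periderm (10.5-fold higher, adjusted p = 0.0496). Of the 6 higher calls named here, those lost when 1 library was left out were all without basal replicate 1 (adjusted p 0.0954 to 0.253), all without periderm replicate 1 (adjusted p 0.186 to 0.236) and all without periderm replicate 2 (adjusted p 0.0620 to 0.159). Of the 9 lower calls named here, those lost when 1 library was left out were gstp1, cst14b.2 and st14b without basal replicate 1 (adjusted p 0.101 to 0.149), gstp1 and cst14b.2 without basal replicate 2 (adjusted p 0.0574 to 0.0625), 6 of them without periderm replicate 1 (adjusted p 0.0834 to 0.257) and gstp1 and cst14b.2 without periderm replicate 2 (adjusted p 0.0564 to 0.145). With transcript rows summed, the test lost all 6 higher calls and 4 of the 9 lower calls (adjusted p 0.0501 to 0.0922), and edgeR's older quasi-likelihood fit lost 3 of the 6 higher calls and 3 of the 9 lower calls (adjusted p 0.0502 to 0.0792). Moves of over 1.5 times gave log2 fold changes of 2.64 for htra1b without basal replicate 1, and -3.62 for noxo1a without basal replicate 2, and -4.75 for capn9, -3.32 for cst14b.1, -2.91 for serpinb14 and -2.52 for st14b without periderm replicate 1. For noxo1a the basal library left without basal replicate 1 held no counts.

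Transcription factors of the epidermis gave a short set of calls in each direction. Of 66 tested, 4 were lower and 3 higher, against 2.54% and 0.956% of all tested genes. The median log2 fold change was 0.40 (0.04 without basal replicate 1, 0.67 without periderm replicate 1). znf750, a zinc finger factor of terminal differentiation in human keratinocytes, had 1.48 and 0.771 CPM in basal precursors against 48.9 and 27.6 CPM in periderm (log2 fold change -5.07, SE 0.64, adjusted p = 0.0112). The grainyhead-like factors act in epithelial barriers. grhl1 had 3.17 and 3.08 CPM in basal libraries and 27.6 and 29.3 CPM in periderm libraries (log2 fold change -3.18, SE 0.51, adjusted p = 0.0251). grhl3 had levels of 0.212 and 0.771 CPM in basal precursors and 11.9 and 7.77 CPM in periderm (18.7-fold lower, adjusted p = 0.0419). prdm1b had 23.7 and 27.4 CPM in basal precursors against 93.8 and 99.0 CPM in periderm (3.77-fold lower, adjusted p = 0.0363). The 3 lower factors other than prdm1b were each under 4 CPM in both basal libraries.

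The higher factors were 2 basonuclins and a homeobox gene. bnc1 had 251 and 161 CPM in basal libraries and 18.5 and 49.5 CPM in periderm libraries (6.01-fold higher, adjusted p = 0.0461). Its paralog bnc2 had levels of 41.0 and 46.4 CPM in basal precursors and 9.05 and 11.01 CPM in periderm (log2 fold change 2.12, SE 0.42, adjusted p = 0.0419). Basonuclin 1 is known from basal keratinocytes of mammals. lbx1a, a homeobox factor, had 33.2 and 22.0 CPM in basal precursors against 1.23 and 2.202 CPM in periderm (log2 fold change 3.94, SE 0.60, adjusted p = 0.0217). Among the most abundant members, klf2b had 123 and 133 CPM in basal libraries and 234 and 140.0 CPM in periderm libraries and did not pass (adjusted p = 0.533). Of the 3 higher calls named here, those lost when 1 library was left out were all without basal replicate 1 (adjusted p 0.0713 to 0.129), bnc2 without basal replicate 2 (adjusted p = 0.0616), all without periderm replicate 1 (adjusted p 0.137 to 0.217) and bnc2 and lbx1a without periderm replicate 2 (adjusted p 0.0528 to 0.104). Of the 4 lower calls named here, those lost when 1 library was left out were grhl1, grhl3 and prdm1b without basal replicate 1 (adjusted p 0.0929 to 0.228), grhl3 and prdm1b without basal replicate 2 (adjusted p 0.0556 to 0.0654), all without periderm replicate 1 (adjusted p 0.0902 to 0.217) and grhl1, grhl3 and prdm1b without periderm replicate 2 (adjusted p 0.0799 to 0.0979). Calls lost with transcript rows summed were all 3 higher calls and grhl3 and prdm1b (adjusted p 0.0508 to 0.0958), and edgeR's older quasi-likelihood fit lost bnc1 and bnc2 and grhl3 (adjusted p 0.0514 to 0.0637). The folds that moved by over 1.5 times had log2 values of -3.60 for grhl3 without basal replicate 1, and -5.38 for grhl3 without basal replicate 2, and 3.48 for bnc1 without periderm replicate 2.

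On the basal side, attachment genes shared a direction more than they passed singly. Of 31 tested, 28 had positive log2 fold changes, with a median of 1.201, and 1 was called, itgb4. Over all tested genes 49.1% were positive and 0.956% were called higher. Other lists also leaned to 1 side. Values were positive for 41 of 45 heat-shock and immediate-early genes and 43 of 54 secretory pathway genes. They were negative for 48 of 59 cell cycle genes. A shared direction was thus not particular to attachment genes, and list members were chosen with earlier results of these data known. The integrin itgb3a, which is outside the attachment list, was called with levels of 99.2 and 46.6 CPM in basal precursors and 6.99 and 5.31 CPM in periderm (log2 fold change 3.57, SE 0.52, adjusted p = 0.0187). The attachment genes with the highest counts after itgb4 included itgb1b.1, with 453 and 437 CPM in basal precursors against 41.1 and 128 CPM in periderm (adjusted p = 0.0583), and cd151l, a tetraspanin that pairs with integrins, with 612 and 303 CPM in basal libraries and 106 and 131 CPM in periderm libraries (adjusted p = 0.0556).

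Among basement membrane genes 34 of 39 had positive log2 fold changes, with a median of 1.21 (0.58 without basal replicate 2, 2.21 without periderm replicate 2). Of these genes 2 were called, both higher. Over all tested genes 49.1% were positive, and 0.956% were called higher. tinagl1, a secreted matrix protein, had levels of 504 and 293 CPM in basal precursors and 43.8 and 49.5 CPM in periderm (log2 fold change 3.09, SE 0.41, adjusted p = 0.0126). The most abundant member in counts, sparc, which binds collagen, had 1988 and 1258 CPM in basal precursors against 562 and 502 CPM in periderm (adjusted p = 0.0728). col18a1a, with 956 and 1036 CPM in basal libraries and 136 and 463 CPM in periderm libraries, varied more between periderm replicates than between basal ones (adjusted p = 0.146). The higher calls itgb3a and tinagl1 were both lost without periderm replicate 1 (adjusted p 0.129 to 0.137) and both lost without periderm replicate 2 (adjusted p 0.0564 to 0.0726). The test lost itgb3a with transcript rows summed (adjusted p = 0.0740). Log2 fold changes that moved by over 1.5 times were 2.96 for itgb3a without basal replicate 1.

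Matrix genes beyond the basement membrane included 3 thrombospondins among 6 higher genes of 32 tested, against 0.956% of all tested genes. The median log2 fold change of this list was 0.55 (0.20 without basal replicate 2, 1.33 without periderm replicate 2). thbs4b had levels of 479 and 432 CPM in basal precursors and 65.6 and 83.5 CPM in periderm (log2 fold change 2.61, SE 0.35, adjusted p = 0.0137). thbs1b had 588 and 381 CPM in basal precursors against 82.7 and 122 CPM in periderm (4.73-fold higher, adjusted p = 0.0328), and thbs1a had 61.8 and 75.7 CPM in basal libraries and 12.1 and 16.7 CPM in periderm libraries (4.74-fold higher, adjusted p = 0.0331). Thrombospondins are secreted glycoproteins that bind matrix and cell receptors. tnw, a tenascin, had levels of 2080.4 and 1321 CPM in basal precursors and 381 and 351 CPM in periderm (log2 fold change 2.22, SE 0.40, adjusted p = 0.0333). postnb, a periostin, had 2303 and 1717 CPM in basal precursors against 272 and 486 CPM in periderm (5.30-fold higher, adjusted p = 0.0351), and fn1b, a fibronectin, had 195 and 133 CPM in basal libraries and 16.9 and 39.1 CPM in periderm libraries (5.83-fold higher, adjusted p = 0.0395). hapln1a, which links hyaluronan to proteoglycans, had levels of 294 and 443 CPM in basal precursors and 216 and 298 CPM in periderm and did not pass (adjusted p = 0.564). cemip, which breaks hyaluronan down, was higher with 43.38 and 23.7 CPM in basal precursors against 4.11 and 2.72 CPM in periderm (9.91-fold higher, adjusted p = 0.0299).

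Collagen-making enzymes and collagens went both ways. Of 51 tested, 2 were higher and 4 lower, with a median log2 fold change of 1.37. The shares over all tested genes were 0.956% higher and 2.54% lower. The collagen VI genes col6a1, col6a2 and col6a4a were also higher, but they were counted with the mesenchyme markers below and not in this list. Both higher genes of this list encode Hsp47, the chaperone of collagen, which is also a heat-shock protein. serpinh1a had 577 and 238 CPM in basal libraries and 70.13 and 89.5 CPM in periderm libraries (5.102-fold higher, adjusted p = 0.0461). serpinh1b had levels of 7849.9 and 1306 CPM in basal precursors and 229 and 286 CPM in periderm (17.8-fold higher, adjusted p = 0.0443), and its basal libraries differed from each other like the summed heat-shock level. col1a2, the most abundant collagen in counts, had 5461 and 4718 CPM in basal precursors against 1085 and 1806 CPM in periderm (adjusted p = 0.0782), and col1a1b had 2751 and 2628 CPM in basal libraries and 492 and 847 CPM in periderm libraries (adjusted p = 0.0520).

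The lower collagens were those of notochord and cartilage. col9a3 had levels of 6.35 and 10.99 CPM in basal precursors and 121 and 74.4 CPM in periderm (log2 fold change -3.48, SE 0.48, adjusted p = 0.0152). col9a2 had 9.31 and 18.3 CPM in basal precursors against 167 and 79.7 CPM in periderm (8.87-fold lower, adjusted p = 0.0299), col9a1b had 5.29 and 7.52 CPM in basal libraries and 43.0 and 39.8 CPM in periderm libraries (6.43-fold lower, adjusted p = 0.0294), and col2a1a had levels of 17.6 and 42.0 CPM in basal precursors and 352 and 212 CPM in periderm (9.45-fold lower, adjusted p = 0.0258). Its paralog col2a1b had 1114 and 1196 CPM in basal precursors against 221 and 486 CPM in periderm, in the other direction (adjusted p = 0.0887). In the list of notochord and cartilage markers, which shares these 4 genes, the summed level was 3191 and 2977 CPM in basal precursors against 2325 and 2209.6 CPM in periderm. Most of its members went the other way from that sum, with 8 of 23 positive, a median log2 fold change of -1.79, and 4 lower and 0 higher calls. At an unadjusted p under 0.05 the list held 13 lower and 3 higher genes, and DESeq2 called 10. Of all 15589 tested genes, 1615 were lower and 1276 higher at that level, and 2.54% and 0.956% were called.

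Mesenchyme markers formed a further list, in which 5 of 37 tested were higher, with a median of 0.86. These 5, named below, encode matrix proteins themselves, so they are not separate from the matrix results. Log2 fold changes were positive for 26 members and negative for 11. edgeR's unadjusted p was under 0.05 for 16 higher and 3 lower members. Of all 15589 tested genes, 1276 were higher and 1615 lower at that level, and 0.956% were called higher. The summed level was 3910.5 and 3189 CPM in basal precursors against 1252 and 1110.5 CPM in periderm. lum, a small proteoglycan, had 768 and 381 CPM in basal libraries and 63.8 and 73.2 CPM in periderm libraries (8.38-fold higher, adjusted p = 0.0176), and fmoda, of the same class, had levels of 444 and 412 CPM in basal precursors and 106 and 41.2 CPM in periderm (5.84-fold higher, adjusted p = 0.0395). The collagen VI genes col6a1, col6a2 and col6a4a were higher too, with log2 fold changes of 3.30 for col6a1 (adjusted p = 0.0138), 3.52 for col6a2 (adjusted p = 0.0170) and 2.97 for col6a4a (adjusted p = 0.0302). The most abundant member, the decorin gene dcn, had 528 and 551 CPM in basal precursors against 135 and 201 CPM in periderm and missed the threshold (adjusted p = 0.0517). The part of mesenchyme cells in the matrix results was not tested. Of the 14 higher calls named here, those lost when 1 library was left out were 9 of them without basal replicate 1 (adjusted p 0.0510 to 0.173), all without periderm replicate 1 (adjusted p 0.0759 to 0.296) and 13 of them without periderm replicate 2 (adjusted p 0.0520 to 0.157). Of the 4 lower calls named here, those lost when 1 library was left out were all without basal replicate 1 (adjusted p 0.0519 to 0.131), all without periderm replicate 1 (adjusted p 0.102 to 0.163) and col9a1b without periderm replicate 2 (adjusted p = 0.0699). With transcript rows summed, the test lost 10 of the 14 higher calls and 3 of the 4 lower calls (adjusted p 0.0564 to 0.0792), and edgeR's older quasi-likelihood fit lost 4 of the 14 higher calls (adjusted p 0.0549 to 0.0636). Folds moved by over 1.5 times, to log2 values of 1.599 for serpinh1a and 2.36 for serpinh1b without basal replicate 1, and 4.94 for serpinh1b, -3.99 for col2a1a and 2.33 for col6a4a without basal replicate 2, and -2.50 for col9a2 and 3.40 for fmoda without periderm replicate 1, and 3.29 for fn1b without periderm replicate 2.

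Genes of retinoid handling were higher at several steps of 1 pathway. Retinol is carried to the cell, taken up, oxidized to retinaldehyde and then to retinoic acid, and the acid is finally degraded. Of 27 tested genes, 5 were higher, against 0.956% of all tested genes. The median log2 fold change over the list was nevertheless 0.30 (-0.30 without basal replicate 1, 0.88 without periderm replicate 2). The carrier rbp4 had 474 and 183 CPM in basal libraries and 19.7 and 20.6 CPM in periderm libraries (log2 fold change 4.03, SE 0.53, adjusted p = 0.0128). The receptor for that carrier, stra6, had levels of 47.8 and 34.1 CPM in basal precursors and 9.87 and 7.90 CPM in periderm (log2 fold change 2.21, SE 0.45, adjusted p = 0.0446). rbp5, which binds retinol inside the cell, had 361 and 282 CPM in basal precursors against 43.0 and 35.8 CPM in periderm (log2 fold change 3.03, SE 0.36, adjusted p = 0.00965). rdh10a, the dehydrogenase of the first oxidation, had 293 and 273 CPM in basal libraries and 48.54 and 49.6 CPM in periderm libraries (log2 fold change 2.53, SE 0.34, adjusted p = 0.0131). cyp26a1, which degrades retinoic acid and is itself induced by it in zebrafish, had levels of 288 and 198 CPM in basal precursors and 18.9 and 24.7 CPM in periderm (log2 fold change 3.47, SE 0.40, adjusted p = 0.00831).

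The replicates of these genes lay close together apart from rbp4 in basal precursors. Paralogs of the last 2 genes did not pass. rdh10b had 25.4 and 26.6 CPM in basal precursors against 19.1 and 22.9 CPM in periderm (adjusted p = 0.812). cyp26c1 had 14.6 and 14.8 CPM in basal libraries and 109 and 36.9 CPM in periderm libraries, in the opposite direction and not past the threshold (adjusted p = 0.0717). Of the 5 higher calls named here, those lost when 1 library was left out were stra6 without basal replicate 1 (adjusted p = 0.186), all without periderm replicate 1 (adjusted p 0.0907 to 0.191) and rbp4, stra6 and rdh10a without periderm replicate 2 (adjusted p 0.0593 to 0.143). With transcript rows summed, the test lost stra6 (adjusted p = 0.0587), and edgeR's older quasi-likelihood fit lost stra6 (adjusted p = 0.0549). Moves of over 1.5 times gave log2 fold changes of 3.21 for rbp4 without basal replicate 1.

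**Figure D3:**
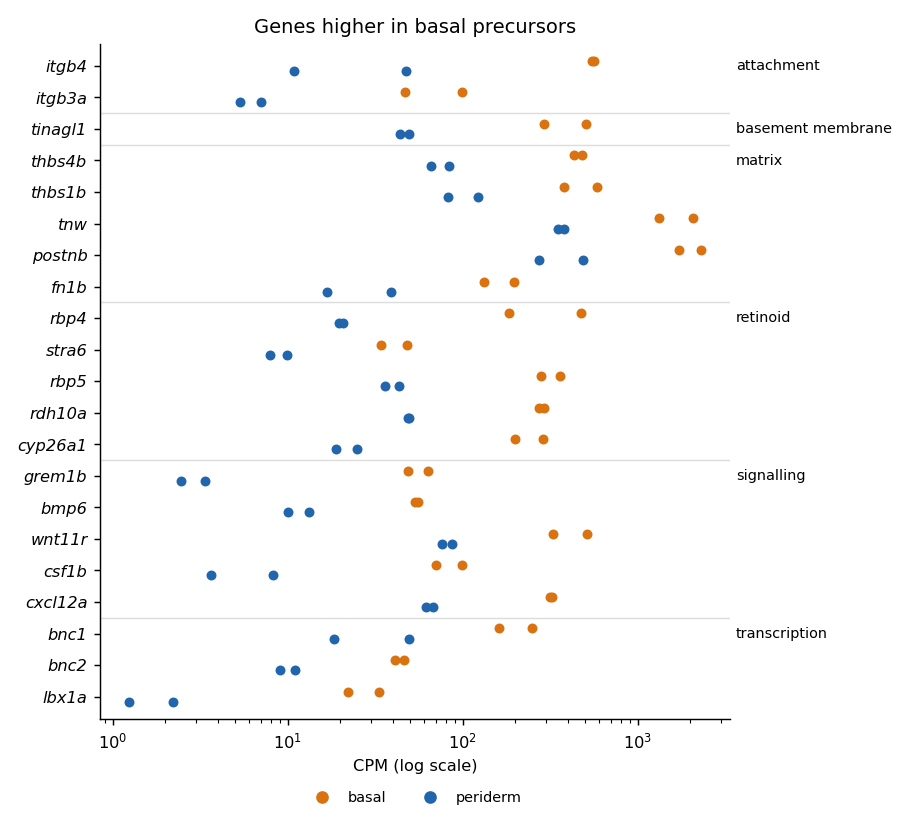
CPM in each library (horizontal axis, log scale) for genes higher in basal precursors, grouped by role from top to bottom. Within each gene the orange basal points stand above the blue periderm points. Only called genes without overlap between the groups were drawn, so the separation of the points follows from that choice. Of all tested genes, 47.0% were without overlap.

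Most signalling genes that passed were higher in basal precursors. In the BMP and TGF-beta list 4 of 51 tested were higher, against 0.956% of all tested genes, with a median of 0.91. They combined a ligand with extracellular regulators. grem1b, a secreted BMP antagonist, had levels of 63.3 and 49.0 CPM in basal precursors and 2.47 and 3.37 CPM in periderm (log2 fold change 4.24, SE 0.48, adjusted p = 0.00831). bmp6, a ligand, had 53.5 and 55.7 CPM in basal precursors against 10.1 and 13.2 CPM in periderm (log2 fold change 2.22, SE 0.40, adjusted p = 0.0339). crim1, a membrane protein that binds BMPs, had 46.8 and 43.36 CPM in basal libraries and 8.64 and 10.4 CPM in periderm libraries (4.72-fold higher, adjusted p = 0.0362), and fstl1a, a follistatin-like protein, had levels of 117 and 106 CPM in basal precursors and 33.7 and 29.4 CPM in periderm (3.53-fold higher, adjusted p = 0.0393). id1, a common target of BMP signalling, had 349 and 220.3 CPM in basal precursors against 158 and 238 CPM in periderm, with overlapping groups (adjusted p = 0.584).

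In the Wnt list 2 of 61 tested were higher and 0 lower, with a median of 0.47. Over all tested genes 3.50% were called in either direction and 0.956% were higher. wnt11r, a ligand that acts mainly without beta-catenin, had 513 and 330.1 CPM in basal libraries and 87.0 and 76.3 CPM in periderm libraries (log2 fold change 2.37, SE 0.38, adjusted p = 0.0246). ror1, a receptor kinase for such ligands, had levels of 76.6 and 53.2 CPM in basal precursors and 7.61 and 16.5 CPM in periderm (5.33-fold higher, adjusted p = 0.0464). The most abundant Frizzled in counts, fzd7b, had 137 and 91.7 CPM in basal precursors against 99.95 and 74.2 CPM in periderm (adjusted p = 0.698). Receptors and a secreted ligand of other pathways gave single calls, with 1 higher and 1 lower of 78 tested in the guidance list. cdon, a co-receptor for Hedgehog, had 386 and 446 CPM in basal libraries and 103 and 144 CPM in periderm libraries (log2 fold change 1.75, SE 0.35, adjusted p = 0.0442). sema3fa, a secreted semaphorin, had levels of 102 and 67.1 CPM in basal precursors and 19.7 and 15.7 CPM in periderm (4.77-fold higher, adjusted p = 0.0335). robo4, a receptor known from vessels, was lower, with 2.54 and 4.63 CPM in basal precursors against 47.3 and 25.4 CPM in periderm (10.0-fold lower, adjusted p = 0.0316).

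erbb3a, a neuregulin receptor known from neural crest derivatives, had no counts in basal precursors against 23.7 and 20.1 CPM in periderm, at least 36.1-fold lower (adjusted p = 0.0137). Pigment cell markers, which derive from the neural crest, moved with it. 9 of 26 tested were lower, against 2.54% of all tested genes, with a median log2 fold change of -3.07. The part of pigment cells in the erbb3a result was not tested. In the cytokine list 3 of 30 tested were higher and 1 was lower, against 0.956% and 2.54% of all tested genes. csf1a had 55.6 and 28.7 CPM in basal libraries and 5.96 and 3.37 CPM in periderm libraries (log2 fold change 3.196, SE 0.56, adjusted p = 0.0323), and its paralog csf1b had levels of 99.0 and 70.15 CPM in basal precursors and 8.23 and 3.63 CPM in periderm (log2 fold change 3.86, SE 0.53, adjusted p = 0.0146). Both encode ligands of the Csf1 receptor. cxcl12a, a chemokine, had 324 and 315 CPM in basal precursors against 67.3 and 61.7 CPM in periderm (log2 fold change 2.31, SE 0.33, adjusted p = 0.0174), while its paralog cxcl12b had 118 and 93.9 CPM in basal libraries and 179 and 72.0 CPM in periderm libraries with overlapping groups (adjusted p = 0.886). hpgd, which inactivates prostaglandins, was also higher, with levels of 81.0 and 54.5 CPM in basal precursors and 8.84 and 5.70 CPM in periderm (9.39-fold higher, adjusted p = 0.0174). Of the 12 higher calls named here, those lost when 1 library was left out were 8 of them without basal replicate 1 (adjusted p 0.0781 to 0.153), cdon without basal replicate 2 (adjusted p = 0.0625), all without periderm replicate 1 (adjusted p 0.0571 to 0.269) and 10 of them without periderm replicate 2 (adjusted p 0.0599 to 0.134). Of the 2 lower calls named here, those lost when 1 library was left out were robo4 without basal replicate 1 (adjusted p = 0.122) and all without periderm replicate 1 (adjusted p 0.0886 to 0.190). Summing transcript rows lost 7 of the 12 higher calls and robo4 (adjusted p 0.0557 to 0.0824), and edgeR's older quasi-likelihood fit lost 3 of the 12 higher calls (adjusted p 0.0510 to 0.0632). The folds that moved by over 1.5 times had log2 values of 4.56 for csf1b without periderm replicate 1, and 3.097 for ror1 without periderm replicate 2.

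Ionocytes, the ion-transporting cells of the skin, arise from the same embryonic epidermis. Their list gave 2 higher of 25 tested and a median of -0.63 (-1.27 without basal replicate 2, -0.0035 without periderm replicate 2). Most members went the other way from the 2 calls, with negative log2 fold changes for 15 of the 25. edgeR's unadjusted p was under 0.05 for 3 higher and 8 lower members, and DESeq2 called 2 higher and 4 lower. Of all 15589 tested genes, 1276 were higher and 1615 lower at that unadjusted level. edgeR's adjusted p called 0.956% of them higher, and DESeq2 called 557 higher and 839 lower. foxi1, a forkhead factor of the otic placode, had 93.1 and 27.4 CPM in basal precursors against 5.35 and 2.72 CPM in periderm (15.204-fold higher, adjusted p = 0.0339). ecrg4b had 378 and 255 CPM in basal libraries and 38.3 and 75.6 CPM in periderm libraries (5.54-fold higher, adjusted p = 0.0338). The sodium pump gene atp1a1a.1 had levels of 914 and 471 CPM in basal precursors and 499.8 and 411 CPM in periderm (adjusted p = 0.538). kcnh2a, a voltage-gated potassium channel, had 55.9 and 32.0 CPM in basal precursors against 1.65 and 4.15 CPM in periderm (log2 fold change 3.86, SE 0.60, adjusted p = 0.0240). rhag, an ammonia channel of the Rh family, had 75.8 and 74.2 CPM in basal libraries and 17.1 and 13.6 CPM in periderm libraries (4.90-fold higher, adjusted p = 0.0280), the opposite direction to the erythroid genes with which it was listed. Of the 4 higher calls named here, those lost when 1 library was left out were foxi1, ecrg4b and rhag without basal replicate 1 (adjusted p 0.0782 to 0.109), all without periderm replicate 1 (adjusted p 0.138 to 0.195) and foxi1, ecrg4b and rhag without periderm replicate 2 (adjusted p 0.0502 to 0.120). With transcript rows summed, the test lost all 4 higher calls (adjusted p 0.0501 to 0.0691). Log2 fold changes that moved by over 1.5 times were 2.83 for foxi1 without basal replicate 1, and 4.58 for foxi1 without basal replicate 2, and 3.06 for ecrg4b and 4.73 for kcnh2a without periderm replicate 2.

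Several lists of other cell types were lower in basal precursors. Over all tested genes 2.54% were called lower. Lens genes, for which the periderm line carries a reporter, had 8 lower of 23 tested and a median of -3.86, or -3.80 with genes lacking basal counts at their bound. Their summed level was 43.0 and 81.1 CPM in basal precursors against 411 and 782 CPM in periderm. The beta crystallin crybb1 had levels of 2.12 and 5.78 CPM in basal precursors and 74.2 and 147 CPM in periderm (log2 fold change -4.79, SE 0.62, adjusted p = 0.0120). cryba1l1 had 2.33 and 7.52 CPM in basal precursors against 67.9 and 96.0 CPM in periderm (16.5-fold lower, adjusted p = 0.0188). The lens reporter and the periderm group coincide and cannot be told apart.

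Neural genes had 10 lower of 47 tested, with a median of -2.16, while 2.54% of all tested genes were lower and 0.956% higher. The summed level of neural genes was 1075 and 1535 CPM in basal precursors against 5082 and 3024 CPM in periderm. elavl4, an RNA-binding protein of neurons, had 8.68 and 17.2 CPM in basal libraries and 72.2 and 83.7 CPM in periderm libraries (6.01-fold lower, adjusted p = 0.0323), and rx1, a retinal homeobox gene, had levels of 2.54 and 5.97 CPM in basal precursors and 35.4 and 26.8 CPM in periderm (7.21-fold lower, adjusted p = 0.0428). Pigment genes summed to 158 and 254 CPM in basal precursors against 1701 and 1360.0 CPM in periderm. dct, an enzyme of melanin synthesis, had 8.25 and 32.0 CPM in basal precursors against 233 and 127 CPM in periderm (8.91-fold lower, adjusted p = 0.0488). Blood and vessel genes summed to 327 and 587 CPM against 1795 and 2409 CPM in periderm, with 7 lower and 1 higher of 31 tested. slc4a1a, the anion exchanger of red cells, had 2.33 and 2.12 CPM in basal libraries and 35.8 and 46.5 CPM in periderm libraries (18.4-fold lower, adjusted p = 0.0103). The hatching enzyme gene he2 had levels of 8.04 and 4.82 CPM in basal precursors and 417 and 384 CPM in periderm (log2 fold change -5.96, SE 0.45, adjusted p = 0.00306). The hatching gland and yolk layer list as a whole was not clearly lower. It had 2 lower of 11 tested and a median of -1.43 (-1.23 without periderm replicate 1, -0.26 without periderm replicate 2). Its summed level overlapped between the groups, with 3099 and 2361 CPM in basal precursors against 1730 and 2364 CPM in periderm. Muscle genes differed between the replicates of each group instead, with a summed level of 41239 and 70856 CPM in basal precursors and 33837 and 84311 CPM in periderm. The leukocyte markers mpx and ptprc and the red cell marker alas2 were at 0 in both basal libraries. Other genes known from these cells, such as slc4a1a and lcp1, were detected there. The leukocyte list summed to 758 and 438 CPM in basal precursors against 540 and 725 CPM in periderm. Markers of neurons, pigment cells and lens were also detected in basal libraries at low levels. Of the 9 lower calls named here, those lost when 1 library was left out were 5 of them without basal replicate 1 (adjusted p 0.0776 to 0.180), mpx without basal replicate 2 (adjusted p = 0.0942), 7 of them without periderm replicate 1 (adjusted p 0.0660 to 0.2396) and 6 of them without periderm replicate 2 (adjusted p 0.0550 to 0.107). Calls lost with transcript rows summed were 4 of the 9 lower calls (adjusted p 0.0572 to 0.0846), and edgeR's older quasi-likelihood fit lost rx1 and dct (adjusted p 0.0562 to 0.0679). Folds moved by over 1.5 times, to log2 values of -3.42 for cryba1l1 and -2.47 for dct without basal replicate 1, and -5.69 for crybb1, -5.12 for cryba1l1, -3.59 for rx1 and -4.43 for dct without basal replicate 2.

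**Figure D4:**
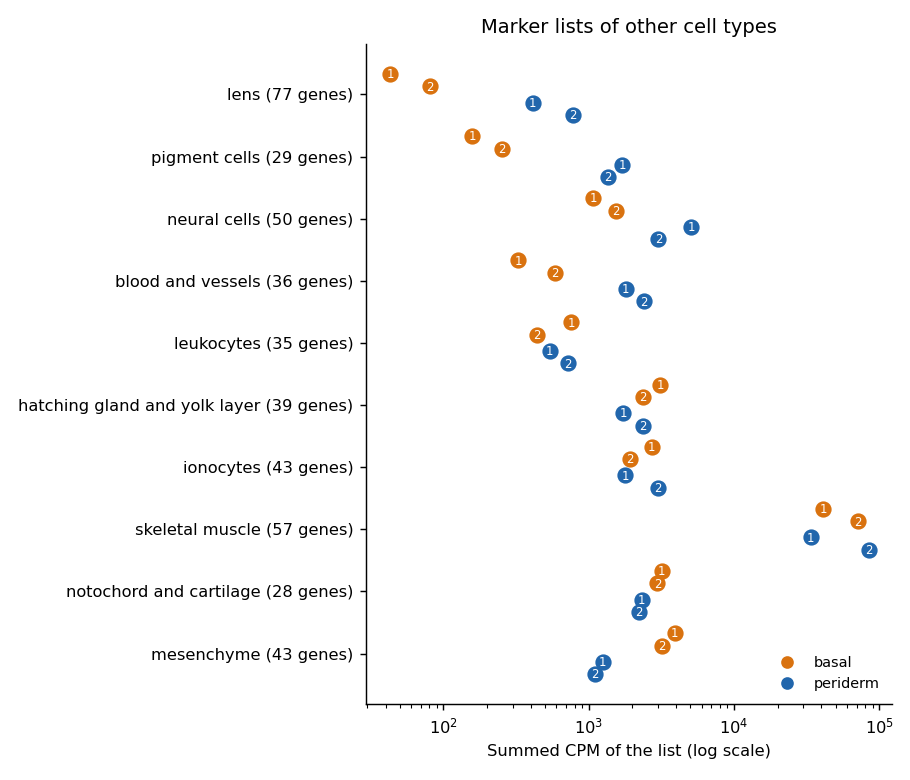
Summed CPM of each marker list of another cell type (horizontal axis, log scale) in the 4 libraries, with orange basal points above blue periderm points and the replicate number inside each point. The mesenchyme and notochord lists lie higher in both basal libraries, the lens, pigment, neural, and blood and vessel lists in both periderm libraries, and the muscle list in replicate 2 of both groups. The median log2 fold change of the notochord list, -1.79, has the opposite sign to the difference of its sums.

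Several of the largest differences were in genes outside the lists, or in lists of other kinds. On the periderm side, apodb, an apolipoprotein D that carries small lipids and is in the hatching gland and yolk layer list, had 2 counts in the basal libraries together against 91.9 and 38.3 CPM in periderm, 293-fold lower (95% counting interval 81.0 to 2417, adjusted p = 0.00448). cyp17a1, an enzyme of steroid synthesis, had 0 and 0.964 CPM in basal precursors against 74.5 and 56.1 CPM in periderm (125-fold lower, adjusted p = 0.00833). uox, which oxidizes urate, had 0.846 and 0 CPM in basal libraries and 26.12 and 54.7 CPM in periderm libraries (94.6-fold lower, adjusted p = 0.0154). ftr86, of the finTRIM family, had levels of 1.48 and 0 CPM in basal precursors and 79.2 and 82.1 CPM in periderm (109.5-fold lower, adjusted p = 0.0106), and ptpn22, a tyrosine phosphatase known from lymphocytes, had 3 counts in the basal libraries together against 41.1 and 27.98 CPM in periderm, 109-fold lower (95% counting interval 37.4 to 529.9, adjusted p = 0.00351). On the basal side, lcat, which esterifies cholesterol, had 42.3 and 24.3 CPM in basal precursors against 2.26 and 4.92 CPM in periderm (8.96-fold higher, adjusted p = 0.0363). arl4ab, a small GTPase gene, had 116 and 40.1 CPM in basal libraries and 12.8 and 5.96 CPM in periderm libraries (8.42-fold higher, adjusted p = 0.0488). nitr1m, of an immune-type receptor family of fish, had levels of 89.1 and 33.7 CPM in basal precursors and 8.64 and 6.09 CPM in periderm (8.38-fold higher, adjusted p = 0.0375), and def6c, an exchange factor for small GTPases, had 31.7 and 21.2 CPM in basal precursors against 3.29 and 3.11 CPM in periderm (8.24-fold higher, adjusted p = 0.0316). bag3, a co-chaperone of Hsp70 in the heat-shock list, had 2431 and 579 CPM in basal libraries and 92.5 and 120.2 CPM in periderm libraries (14.1-fold higher, adjusted p = 0.0333). The basal replicates of bag3 differed like the summed heat-shock level. Of the 5 higher calls named here, those lost when 1 library was left out were 4 of them without basal replicate 1 (adjusted p 0.129 to 0.173), all without periderm replicate 1 (adjusted p 0.166 to 0.247) and all without periderm replicate 2 (adjusted p 0.0646 to 0.155). Of the 5 lower calls named here, those lost when 1 library was left out were cyp17a1, uox and ftr86 without periderm replicate 1 (adjusted p 0.0608 to 0.0784). Summing transcript rows lost 4 of the 5 higher calls (adjusted p 0.0646 to 0.127), and edgeR's older quasi-likelihood fit lost arl4ab and nitr1m (adjusted p 0.0509 to 0.0668). Moves of over 1.5 times gave log2 fold changes of -6.03 for cyp17a1, 2.15 for arl4ab, 2.23 for nitr1m and 2.46 for bag3 without basal replicate 1, and -5.54 for uox, -5.74 for ftr86, 3.67 for arl4ab and 4.52 for bag3 without basal replicate 2, and 3.74 for arl4ab without periderm replicate 1, and -5.91 for uox and 3.87 for lcat without periderm replicate 2. For uox and ftr86 the basal library left without basal replicate 1 held no counts. For cyp17a1 the basal library left without basal replicate 2 held no counts.

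For several large lists edgeR's quasi-likelihood test called no gene. Of all 15589 tested genes it called 3.50%, and 2891 had an unadjusted p under 0.05 (1276 higher, 1615 lower). DESeq2 called 1396 of them. The 21 tested desmosome and adherens genes had a median log2 fold change of 0.03 (-0.11 without basal replicate 1, 0.39 without basal replicate 2), with 3 higher and 0 lower at an unadjusted p under 0.05, and DESeq2 called 0. The 32 tested Notch genes had a median of -0.61, with 4 higher and 10 lower at an unadjusted p under 0.05 and 2 calls by DESeq2. The 49 tested Fgf genes had a median of 0.46 (0.20 without basal replicate 1, 1.00 without periderm replicate 2), with 5 higher and 1 lower at that level and 2 calls by DESeq2. Cell cycle, ribosomal protein and respiratory chain genes had medians of -0.36 (-0.63 without periderm replicate 2, 0.04 without periderm replicate 1), -0.08 (-0.23 without periderm replicate 1, 0.20 without periderm replicate 2) and -0.15 (-0.25 without basal replicate 2, -0.01 without basal replicate 1). At an unadjusted p under 0.05 they held 0, 0 and 4 genes, and DESeq2 called 0, 0 and 1. pcna, a replication clamp, had levels of 640.3 and 652 CPM in basal precursors and 1108 and 728 CPM in periderm (adjusted p = 0.573). Secretory pathway genes had a median of 0.29, with 7 past an unadjusted p of 0.05 and 0 past DESeq2's adjusted p, although agr1 itself was among the largest differences. Muscle genes had a median of -0.17 (-0.80 without basal replicate 2, 0.54 without periderm replicate 2), with 5 and 4 by the same measures.

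**Figure D5:**
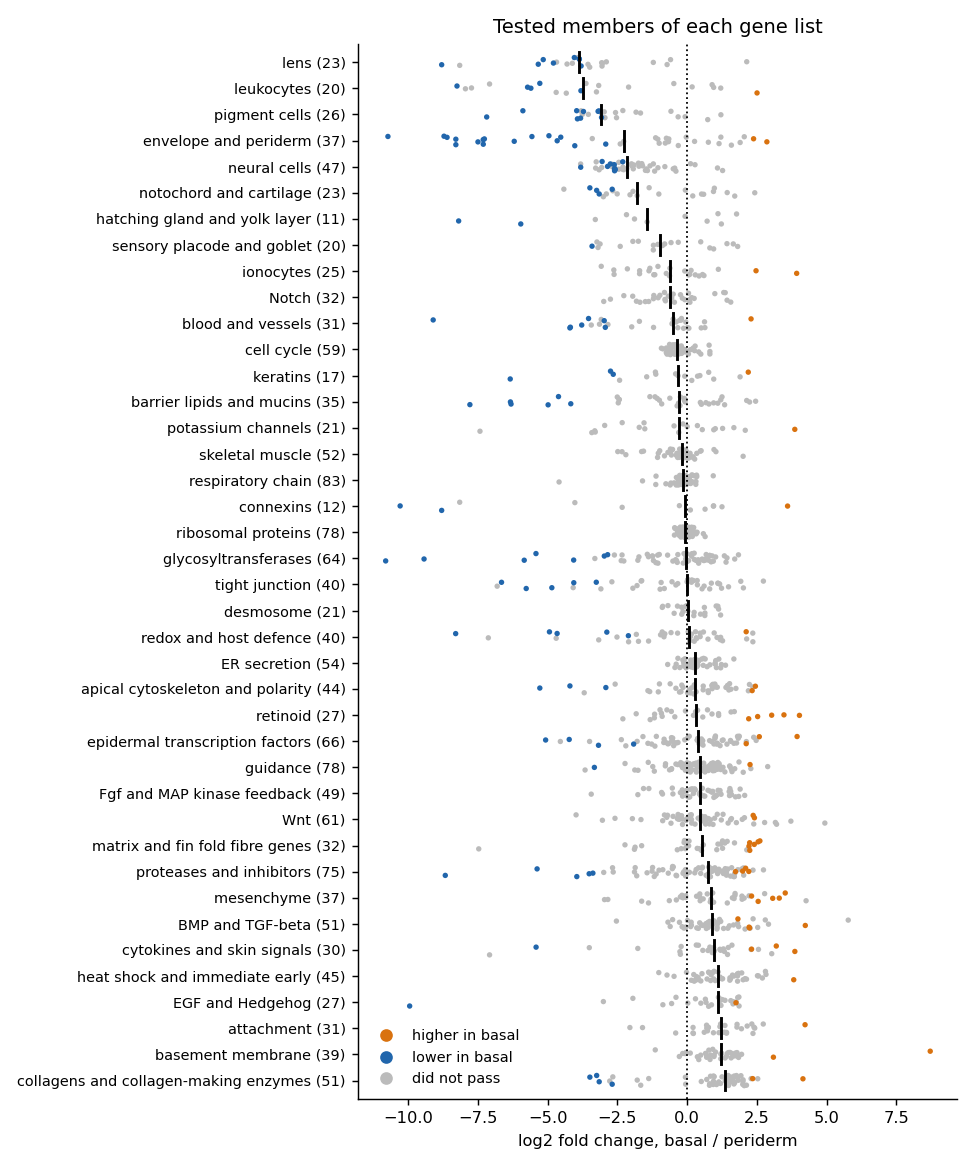
Log2 fold change of basal precursors over periderm (horizontal axis) for every tested member of each gene list, 1 list per line. Grey points did not pass, orange points were higher and blue points lower in basal precursors, the black bar is the list's median and the dotted line the median of all tested genes (-0.02). The envelope, pigment, neural, leukocyte and lens lists have medians left of -2, and the attachment, basement membrane, collagen, EGF and Hedgehog, and heat-shock lists have medians above 1. These are medians of the fit with all 4 libraries, and several depended on single libraries. With 1 library left out, the envelope median lay between -1.98 and -1.55, and the neural median reached -1.63. The attachment, basement membrane, and EGF and Hedgehog medians fell as low as 0.87, 0.58 and 0.77. The heat-shock median of 1.11 moved to 0.25 without basal replicate 1 and 1.65 without basal replicate 2. The pigment, leukocyte, lens and collagen medians stayed beyond -2 or 1.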

How the data were processed

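RNA of sorted 1-day zebrafish skin cells was sequenced in 2 basal and 2 periderm libraries. The submitters' processing notes name build GRCz11, featureCounts 2.0.3 and HISAT2 2.2.1. The sources used here do not give their order, the annotation release, the strand setting or the treatment of multi-mapped reads. The authors deposited whole-number read counts per transcript row and TPM, which is scaled per row length and to the total of a library. TPM was used only to compare keratin genes per length.

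Each symbol was represented by its row of highest mean count in the 5 libraries, so counts on other isoforms were left out. Some symbols have rows in more than 1 place of the table (6068 of 30849), judged by blocks of adjacent rows and not by genome position. Counts of such genes, paralogs or overlapping genes could be split or shared. Among the named genes these are alas2, arl4ab, bnc2, col2a1a, col9a1b, cx30.3, cxcl12b, elovl7a, eps8l1, galnt6, gcnt4a, grhl3, itgb3a, krt4, krt5, krt8, ptx4, rdh10a, scel, stra6, stx11b.1 and tp63. Counts were tested with edgeR 4.0.16 in R 4.3.3 (filterByExpr, TMM, glmQLFit, glmQLFTest), group as the only term. Benjamini-Hochberg adjustment ran over all 15589 genes, with a threshold of 0.05. CPM used TMM-scaled sizes of the 4 libraries. The standard error is the log2 fold change divided by the root of the F statistic. A gene without counts in 1 group is given as a bound against a floor of 3 counts per library. Ratios of 1 to 3 counts carry a 95% counting interval. Intervals and floors cover counting error only. The test was tried on simulated counts with known changes, drawn at 1 common dispersion. Changes were given only to genes above a set mean level, so recovery near the floor was not measured. The test recovered 27 of 107 genes with an absolute log2 fold change of 2 and 91 of 93 with one of 4, with 6 false calls. A gene that did not pass may thus still differ by a log2 fold change near 2. The alternatives were RLE or no scaling, other count filters, DESeq2 1.42.0, edgeR's older fit, all 5 libraries, transcript rows summed, a replicate block and each library left out.

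Genes were named by rule. They were the sort and layer markers and the 25 largest calls in each direction at 20 CPM or more without overlap. From each of 40 gene lists, they were up to 8 calls in each direction at 2 CPM or more, all calls of lists called both ways, and up to 4 members by mean CPM. Paralogs of named genes were added as values. The leukocyte marker ptprc was chosen after its values were seen. Members and lists were chosen with earlier results of these data known. No sequences are shown, since no genome of the files' build was used here. Many genes that the rule would allow are covered only by the counts of their lists, and some results are not reported here.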

Additional observations from a re-analysis of the deposited data

How the results depend on the processing

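Relative to 545 calls (149 higher, 396 lower), DESeq2 called 1396 (557 and 839), edgeR's older fit 349 (76 and 273) and transcript rows summed 208 (26 and 182). Leaving out 1 library gave 78 to 948 calls, 0 to 510 higher and 78 to 438 lower, and the lone library left in a group was assumed to vary like the other group. The extremes came without periderm replicate 1 and without basal replicate 2. The causes of these shifts were not tested. The other scalings, the 2 other filters and the fit with 5 libraries gave 484 to 773 calls. Without a scaling factor the median log2 fold change of all tested genes was -0.14 against -0.02, and the medians of the tight junction, desmosome and redox lists changed sign to -0.11, -0.15 and -0.08.

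With a replicate block the test made 584 calls (178 and 406), of which 458 were shared with the fit without it. The replicate differences of the 2 groups correlated across 9293 genes of at least 10 CPM (r = 0.32), genes not being independent replicates. With 2 pairs, and labels that do not say what the numbers share, the pairing was not used.

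Of 138 named calls, neither scaling lost any. DESeq2 lost anxa6, fut9d and noxo1a (adjusted p 0.143 to 0.2404), and the fit with 5 libraries lost krt8, mmp14a and cdon (adjusted p 0.0505 to 0.0535). A minimum of 5 CPM lost anxa6, noxo1a, mmp28, htra1b, bnc1, serpinh1a, serpinh1b, ror1, dct and arl4ab (adjusted p 0.0525 to 0.0682). No filter lost mpx, cst14b.2, mmp14a, mmp28, bnc2, stra6, fstl1a, ror1 and cdon (adjusted p 0.0520 to 0.0606), and the block lost 14 (adjusted p 0.0504 to 0.0658). No named gene changed direction under the scalings, filters, tests or block. Some uncalled genes did when a library was left out. The log2 fold change without 1 library ranged over -0.92 to 0.96 for krtt1c19e, -0.75 to 0.47 for anxa1a, -0.16 to 1.13 for oclna, -2.09 to 0.12 for elovl1a, -0.53 to 0.33 for alox12 and -0.75 to 0.59 for cxcl12b. The highest values of elovl1a came without basal replicate 2, those of krtt1c19e, alox12 and cxcl12b without periderm replicate 1. With 2 libraries a group and 4622901 to 7505595 gene counts each, a difference between levels at or under the floor of 3 counts was not detectable.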
